A study of Mus musculus with 2 samples.

Results

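A set of 10 genes of the Wnt signalling pathway was followed in glomeruli, the capillary tufts that filter blood in the kidney, by every probe set of the array annotated to exactly 1 of them: the secreted antagonists Frzb, Sfrp1, Sfrp2, Dkk2, Dkk3 and Wif1, the ligand Wnt4, the transducer Ctnnb1, and Lef1 and Axin2, a nuclear partner and a target of the pathway. They are represented by 21 of the 45101 probe sets on the array, groups of short oligonucleotides designed to read a transcript. The genes are 10 of the 18193 named on the array, and they were chosen partly from the signals and diet differences of these same arrays, so the differences below are descriptions and carry no test. RNA came from glomeruli isolated from male KK/Ta mice, an inbred strain that becomes obese and diabetic, at 20 weeks of age. Of the 2 arrays, 1 held RNA of mice on a high-fat diet (HFD), and 1 held RNA of mice on a normal fat chow diet (Chow). The strain, sex, age and tissue were shared by both groups. Only the design text gives a number of mice, 3, without saying whether this was per diet or whether RNA was pooled, so all differences are between 2 RNA preparations.

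Wnt proteins are secreted ligands that bind Frizzled receptors with Lrp5 or Lrp6. Binding stops a complex built on axin from degrading beta-catenin, which then enters the nucleus and activates genes together with factors of the TCF/LEF family. Secreted frizzled-related proteins and Wif1 bind the ligands outside the cell, whereas Dickkopf proteins act on the Lrp co-receptors. In the kidney the pathway is known for its part in nephron formation and, in adult animals, in podocyte injury and fibrosis.

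Deposited signals were put on a log2 scale and centred on each array's median, and values below that median (a signal of 42.3 for HFD and of 44.9 for Chow) were raised to it. This level is called the floor, and a probe set above it on 1 array only has a bound, given as "at least". Centring added 0.083 to each HFD minus Chow log2 difference. Of the 21 probe sets, 10 were above the floor on both arrays, 2 on the HFD array only, 2 on the Chow array only, and 7 on neither. The 14 above it on at least 1 array came from 9 genes, and Lef1 had none. Among these 14, 1 was at least 2-fold higher in HFD, against 0.615% of the 23419 probe sets of the array above the floor, and 0 were at least 2-fold lower, against 0.295%. Over the array these shares stood for 144 probe sets higher and 69 lower, and the split was 106 and 96 without centring. Counts take a bound at its smallest size, so a probe set below the floor on 1 array may differ by more than is counted. At 1.5-fold the counts were 4 higher (3.66% of all) and 1 lower (2.58% of all). The median difference of the 14 was 0.15 on the log2 scale, and that of all 23419 was 0.038. As the genes were chosen with this contrast in view, nothing is read from these shares. As a measure of precision, each difference is set beside the scatter of HFD minus Chow differences (scaled median absolute deviation, log2) among probe sets in the same one of 10 equal bands of mean signal. The scatter ran from 0.64 in the dimmest band to 0.16 in the brightest and holds technical and real differences together. It was taken before values were raised to the floor, whereas differences, bounds and shares were taken after, so a bound near the floor looks small beside it.

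**Figure D1:**
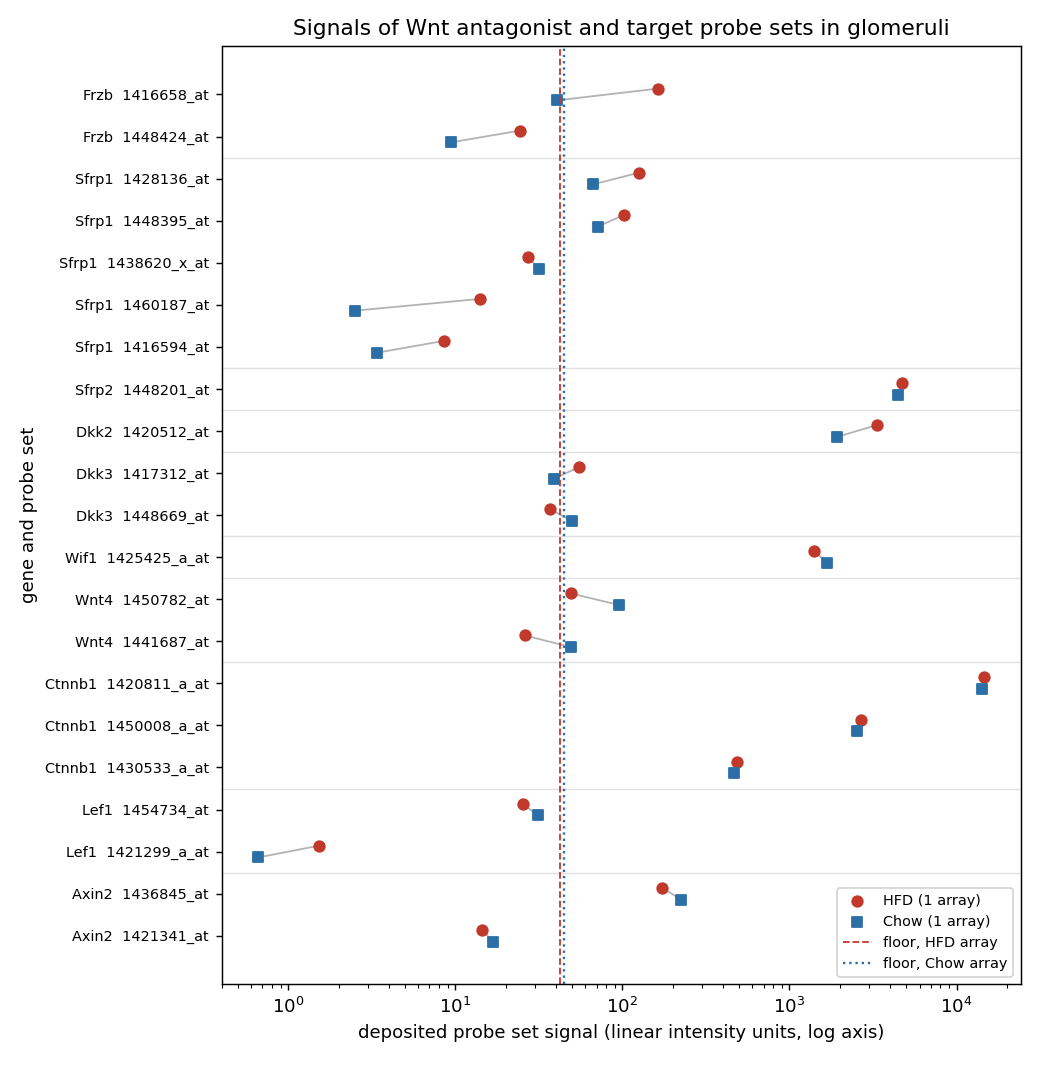
Deposited signal (x axis, linear intensity units on a log axis) of the 21 probe sets (y axis) in HFD (circles) and Chow (squares), 1 array each, with each array's floor as a vertical line. Frzb 1416658_at lies at 163 in HFD and 40.6 in Chow, on either side of the floors, while Ctnnb1, Sfrp2, Dkk2 and Wif1 lie well to the right of them on both arrays.

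Frzb and Dkk2, both secreted antagonists, stood out from the scatter by the widest margin. Frzb encodes a secreted frizzled-related protein that binds Wnt ligands. Its probe set 1416658_at had a signal of 163 in HFD and 40.6 in Chow, the second of which is below the floor. The signal was therefore at least 3.86-fold higher in HFD, a log2 bound of 1.95 beside a scatter of 0.35. The second Frzb probe set, 1448424_at, had a signal of 24.2 in HFD and 9.39 in Chow, below the floor on both arrays. Both Frzb probe sets were designed from the same source sequence, per the platform annotation.

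Dkk2 encodes a Dickkopf protein that binds Lrp5 and Lrp6 and can block or, in some settings, aid Wnt signalling. Its single probe set, 1420512_at, was bright on both arrays, with a signal of 3327 in HFD and 1928 in Chow, brighter than 97.4% and 94.5% of the probe sets of these arrays. It was 1.83-fold higher in HFD, a log2 difference of 0.87 beside a scatter of 0.16 in its band. In that brightest band 0.897% of probe sets reached 1.5-fold upwards and 0.128% reached 2-fold. Dkk2 therefore differed by far more than most transcripts of like signal while staying under 2-fold.

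The sequences just upstream of the Frzb and Dkk2 start sites are shown because these 2 genes had differences furthest beyond the scatter, and those of Wnt4, Axin2 and Wif1 follow for the genes that read lower. Each is 250 bases long, ends at the base before the start site, and was taken from RefSeq on GRCm38.p6, on the strand of the gene. Capitals mark CTTTG, the core shared by TCF/LEF sites, on either strand (CAAAG where it lies on the other strand). They also mark TATAAA, the letters of the TATA box, wherever these lie. A match in letters does not show that a site is in use. The windows lie at chr2:80447397-80447646 (minus strand) for Frzb and chr3:132085042-132085291 (plus strand) for Dkk2.
Frzb: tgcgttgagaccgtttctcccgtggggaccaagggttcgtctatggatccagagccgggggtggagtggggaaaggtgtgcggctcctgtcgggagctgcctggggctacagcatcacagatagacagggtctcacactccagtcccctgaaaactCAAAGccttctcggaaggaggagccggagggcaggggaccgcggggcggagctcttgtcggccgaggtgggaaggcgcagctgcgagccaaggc
Dkk2: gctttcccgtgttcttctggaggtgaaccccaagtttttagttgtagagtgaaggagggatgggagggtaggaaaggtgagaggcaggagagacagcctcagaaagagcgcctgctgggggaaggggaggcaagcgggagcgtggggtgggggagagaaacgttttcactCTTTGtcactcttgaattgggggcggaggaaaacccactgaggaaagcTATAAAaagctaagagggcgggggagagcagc
The Frzb window held 1 CTTTG core, on the opposite strand and beginning at position -94 from the start site, and 0 TATAAA. The Dkk2 window held 1 CTTTG core at -80 and 1 TATAAA at -32, both on the gene's strand. CTTTG on either strand occurred in 48.6% of the 32851 promoter windows of the table and TATAAA in 12.4%. The longer TCF/LEF site, CTTTG followed by 2 bases of A or T, occurred in 14.8%. None of the windows shown for Frzb, Dkk2, Wnt4, Axin2 and Wif1 held this longer site. Of the 12 windows found for the listed genes, some of which overlap, 7 held a CTTTG core and 1 the longer site. That 1 was a window of Lef1, whose windows, not shown, held 1, 2, 1 and 3 CTTTG cores. Of the 10 genes 8 had an entry in the table. No window is shown for Sfrp1 and Dkk3. Sfrp2 and Ctnnb1, which read higher by about their scatter, had 0 CTTTG cores in their windows. The part of these letters in the diet differences was not tested.

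Sfrp1 encodes a further secreted frizzled-related protein. Its brightest probe sets read higher in HFD: 1428136_at had a signal of 125 in HFD and 66.5 in Chow, and 1448395_at a signal of 103 in HFD and 71.3 in Chow. The log2 differences were 0.999 (1.998-fold, just under 2-fold) and 0.61 (1.53-fold), beside a scatter of 0.35 for both. The other 3 Sfrp1 probe sets were below the floor on both arrays, with signals of 8.51 to 27.2 in HFD and 2.50 to 31.6 in Chow. Of these, 1460187_at and 1416594_at were designed from the same source sequence as 1448395_at, per the platform annotation, so probe sets made from 1 sequence differed in whether they stood above the floor at all.

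Sfrp2, Wif1 and Dkk3 differed by about their scatter or less. Sfrp2 encodes a secreted frizzled-related protein that also acts on the extracellular matrix. Its probe set 1448201_at had a signal of 4727 in HFD and 4485 in Chow, and the log2 difference of 0.16 was about as large as the scatter of 0.16. Wif1, the Wnt inhibitory factor, had a signal of 1408 in HFD and 1688 in Chow on 1425425_a_at, with a log2 difference of -0.18 beside a scatter of 0.18. Dkk3 is a divergent Dickkopf protein that is not a classical Lrp antagonist. Its 2 probe sets, designed from the same source sequence, went opposite ways near the floor. The probe set 1417312_at had a signal of 54.8 in HFD and 38.9 in Chow, and 1448669_at had 36.9 in HFD and 49.9 in Chow. Both bounds, 0.37 and -0.15 on the log2 scale, lay within the scatter of 0.64 of the dimmest band, as did the differences without the floor, 0.58 and -0.35. Among the secreted antagonists, Sfrp2, Dkk2 and Wif1 were thus bright on both arrays, and Frzb, Sfrp1 and Dkk3 were dim, with signals of at most 163. Probe sets differ in affinity, so these signals do not order the transcripts by abundance.

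**Figure D2:**
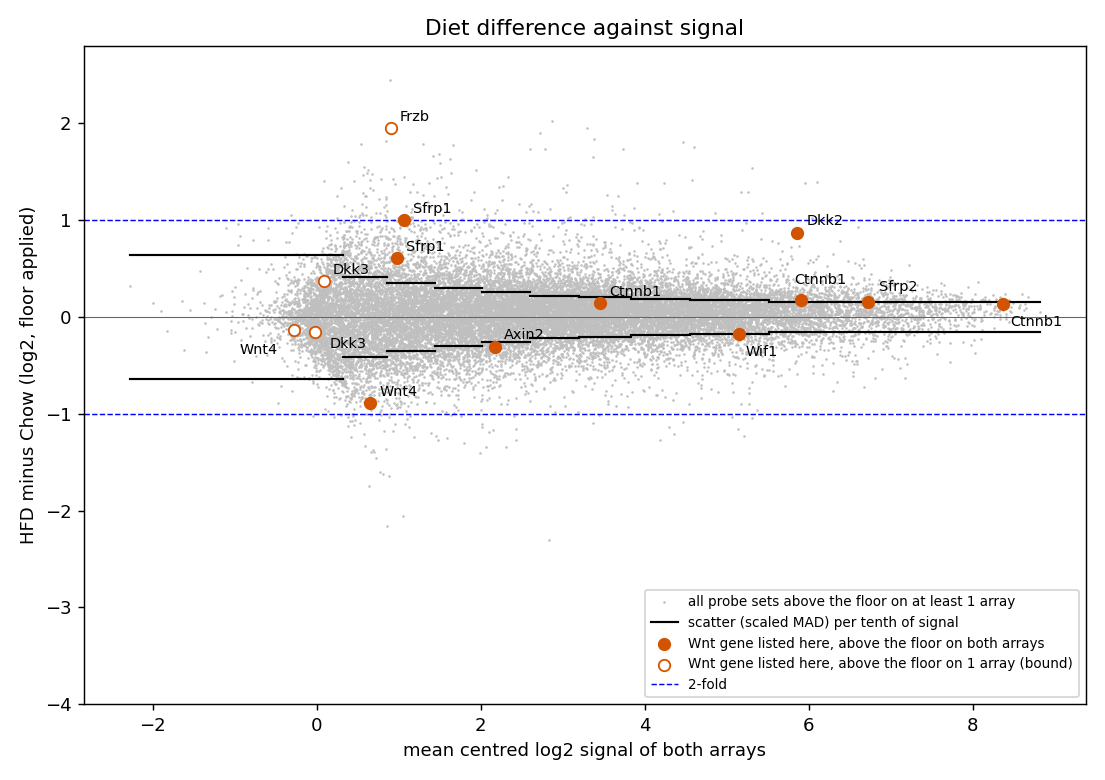
HFD minus Chow log2 difference (y axis) against mean centred log2 signal of both arrays (x axis) for all 23419 probe sets above the floor on at least 1 array (grey) and the 14 of the listed Wnt genes (orange, open where the value is a bound). Black steps give plus and minus the scatter, taken before the floor, in each of 10 signal bands. Frzb (1.95), Sfrp1 (0.999 and 0.61), Dkk2 (0.87) and Wnt4 (-0.89) exceed 1.5 times the scatter of their bands, while Ctnnb1 lies close to or within them.

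Wnt4, the ligand that drives epithelial conversion in the forming nephron, read lower in HFD in both of its probe sets. The probe set 1450782_at had a signal of 49.0 in HFD and 96.1 in Chow, a 1.85-fold lower value with a log2 difference of -0.89 beside a scatter of 0.41. In its band 7.77% of all probe sets were at least 1.5-fold lower and 1.15% at least 2-fold lower. In the band of Dkk2 these downward shares were 0.47% and 0%, so values past either threshold were more common at the signal of Wnt4. The probe set 1441687_at had a signal of 26.0 in HFD, under the floor, and 49.4 in Chow, just above it. Its bound was only 1.10-fold lower, and without the floor the log2 difference would have been -0.84.

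Beta-catenin, encoded by Ctnnb1, is the transcriptional effector of the pathway and also a component of cell junctions. Its 3 probe sets had signals of 14632, 2695 and 488 in HFD and 14109, 2535 and 469 in Chow. The log2 differences were 0.14, 0.17 and 0.14, and lay close to the scatter of 0.16, 0.16 and 0.21 in their bands. After quantile normalization they were 0.026, 0.13 and 0.11, so the brightest probe set depended most on the scaling. Of the 3 probe sets 2 were designed from the same source sequence. The control probe sets of Gapdh and beta-actin on the same arrays all read higher in HFD, by 0.14 to 0.28 on the same centred log2 scale.

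Axin2 is a scaffold of the destruction complex and itself a widely used target of the pathway, and Lef1 is a DNA-binding partner of beta-catenin. Axin2 1436845_at had a signal of 172 in HFD and 225 in Chow, a log2 difference of -0.31 (1.24-fold lower) beside a scatter of 0.25. Axin2 1421341_at was below the floor on both arrays, at 14.4 in HFD and 16.9 in Chow. Lef1 was below the floor in both of its probe sets, with 25.3 in HFD and 31.1 in Chow on 1454734_at, and 1.53 in HFD and 0.66 in Chow on 1421299_a_at, so no diet difference is given for it. The upstream windows of the genes that read lower lie at chr4:137277385-137277634 (plus strand) for Wnt4, chr11:108920099-108920348 (plus strand) for Axin2 and chr10:121033754-121034003 (plus strand) for Wif1.
Wnt4: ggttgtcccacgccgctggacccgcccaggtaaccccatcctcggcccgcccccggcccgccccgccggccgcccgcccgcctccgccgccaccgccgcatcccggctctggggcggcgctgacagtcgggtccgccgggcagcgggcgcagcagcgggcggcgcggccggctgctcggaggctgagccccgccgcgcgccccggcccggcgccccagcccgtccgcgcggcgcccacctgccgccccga
Axin2: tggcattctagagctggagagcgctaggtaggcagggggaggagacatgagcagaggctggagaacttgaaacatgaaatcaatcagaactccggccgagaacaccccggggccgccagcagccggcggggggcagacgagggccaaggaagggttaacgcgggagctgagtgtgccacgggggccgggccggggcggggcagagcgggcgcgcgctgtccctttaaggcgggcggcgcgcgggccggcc
Wif1: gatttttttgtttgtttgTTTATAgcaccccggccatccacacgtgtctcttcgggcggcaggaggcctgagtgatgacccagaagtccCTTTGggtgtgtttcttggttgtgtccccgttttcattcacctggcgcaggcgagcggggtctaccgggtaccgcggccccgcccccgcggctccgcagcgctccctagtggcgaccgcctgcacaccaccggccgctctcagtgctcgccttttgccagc
The Wnt4 and Axin2 windows held neither CTTTG nor TATAAA on either strand, so none of their bases is in capitals. The Wif1 window held 1 CTTTG core at -161 on the gene's strand and 1 TATAAA at -232 on the opposite strand. The Wnt4 window was 85.2% G and C, against a median of 52.4% over all windows, and those of Axin2, Frzb, Wif1 and Dkk2 were 69.2%, 64.4%, 62.8% and 55.6%. The absence of these letters concerns only the 250 bases searched.

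The rest of the pathway was described by 6 lists of other Wnt genes, with the brightest probe set standing for a gene. Of 116 such genes on the array 77 were above the floor. Of these, 3 (Cd44, Notum and Lgr5) were below the floor in Chow, and each counts at its bound. By values and bounds 0 were at least 2-fold higher in HFD (0.722% of all 11356 genes above the floor) and 0 lower (0.159%). At 1.5-fold 4 were higher (4.21% of all genes) and 0 lower (1.41%). Their median difference was 0.074, beside 0.064 for all genes, and 48 were higher by any amount and 29 lower, against 62.2% higher among all genes. Without centring 37 were higher and 40 lower, against 46.1% higher among all genes, so which direction held the larger number changed with the scaling. The pathway as listed therefore sat near the general level of the arrays, and the genes whose value or bound passed 1.5-fold were Cd44, Tnfrsf19, Fn1 and Fzd1. Cd44 may lie past 2-fold and Notum past 1.5-fold, since their bounds do not limit them upwards.

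Among ligands and their export machinery only 5 of 20 genes were above the floor, with a median of -0.052 (-0.14 without centring). Wnt9a stood at 0.22 (58.6 in HFD and 53.3 in Chow) and Wnt5b at 0.094. Wnt6 stood at -0.14, and Porcn, the acyltransferase that lipidates Wnt proteins, at -0.13. The other 15 Wnt ligands on the list were below the floor on both arrays. Wls, the carrier that brings Wnt proteins to the cell surface, was bright at 2448 in HFD and 2689 in Chow, with a difference of -0.052.

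Other secreted or cell surface modulators read higher in 8 of 8 genes above the floor, with a median of 0.28 and no value or bound past 1.5-fold (7 of 8 and a median of 0.20 without centring). Among all genes 62.2% were higher, or 46.1% without centring. Gpc3, a glypican of the cell surface, was 1.49-fold higher (2069 in HFD and 1473 in Chow), and Gpc4 was 1.27-fold higher (949 in HFD and 792 in Chow). Sost, the Lrp antagonist sclerostin, stood at 0.40 (106 in HFD and 84.9 in Chow), and the related Sostdc1 at 0.29 (94.3 in HFD and 81.6 in Chow). Notum, an enzyme that removes the lipid from Wnt proteins, had 51.0 in HFD and 30.1 in Chow, below the floor there, a log2 bound of 0.27. Dkk1 and Dkk4 were below the floor on both arrays. The smallest difference of the 8 was that of Rspo3, an R-spondin that enhances Wnt signalling, at 0.013.

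Receptors and co-receptors had a median of 0.0052 over 16 genes, with 9 higher and 7 lower (5 and 11 without centring). Fzd1 had a signal of 859 in HFD and 595 in Chow and was 1.53-fold higher, the only one of the 16 with a value or bound past 1.5-fold. Fzd8 stood at 0.31, Ror1 at 0.24 and Fzd3 at -0.29. Cytoplasmic genes had a median of 0.010 over 23 genes, with 12 higher and 11 lower (8 and 15 without centring). Gsk3a, a kinase that marks beta-catenin for degradation, stood at 0.43 (900 in HFD and 709 in Chow), Dvl2 at 0.31, Daam1 at 0.28 and Vangl2 at -0.24. Nuclear genes had a median of 0.056 over 14 genes (-0.028 without centring), and Tcf7l2, a TCF factor, was 1.35-fold lower (184 in HFD and 264 in Chow). Ruvbl2 stood at 0.32, Tle4, a corepressor, at -0.31 and Ctnnbip1, an inhibitor of beta-catenin, at -0.21.

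Other target genes read higher in 8 of 11 genes above the floor, against 62.2% higher among all genes. Their median was 0.29, beside 0.064 for all genes. Cd44, an adhesion receptor, had a signal of 80.4 in HFD and 40.8 in Chow, below the floor there, and was at least 1.90-fold higher. Tnfrsf19 had 101 in HFD and 56.8 in Chow (1.89-fold higher), Fn1, encoding fibronectin, 104 in HFD and 70.2 in Chow (1.57-fold higher), and Jag1 497 in HFD and 361 in Chow (1.46-fold higher). The more specific feedback target Nkd1 stood at -0.026 (243 in HFD and 262 in Chow), beside -0.31 for Axin2, whereas Nkd2 and Sp5 were below the floor on both arrays. Many of these targets also respond to other pathways. When a gene was given the middle value of its probe sets instead of the brightest one, the median of this list was 0.11. Further probe sets above the floor read the same way for Tcf7l2 (3 of 3) and for Gpc4, Sostdc1, Cd44 and Jag1 (1 of 1 each). They did so in 1 of 2 for Fzd3, Vangl2 and Tle4, and in 0 of 1 for Wnt5b, Fzd8, Daam1 and Ctnnbip1, so the direction of these 7 genes depended on the probe set.

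**Figure D3:**
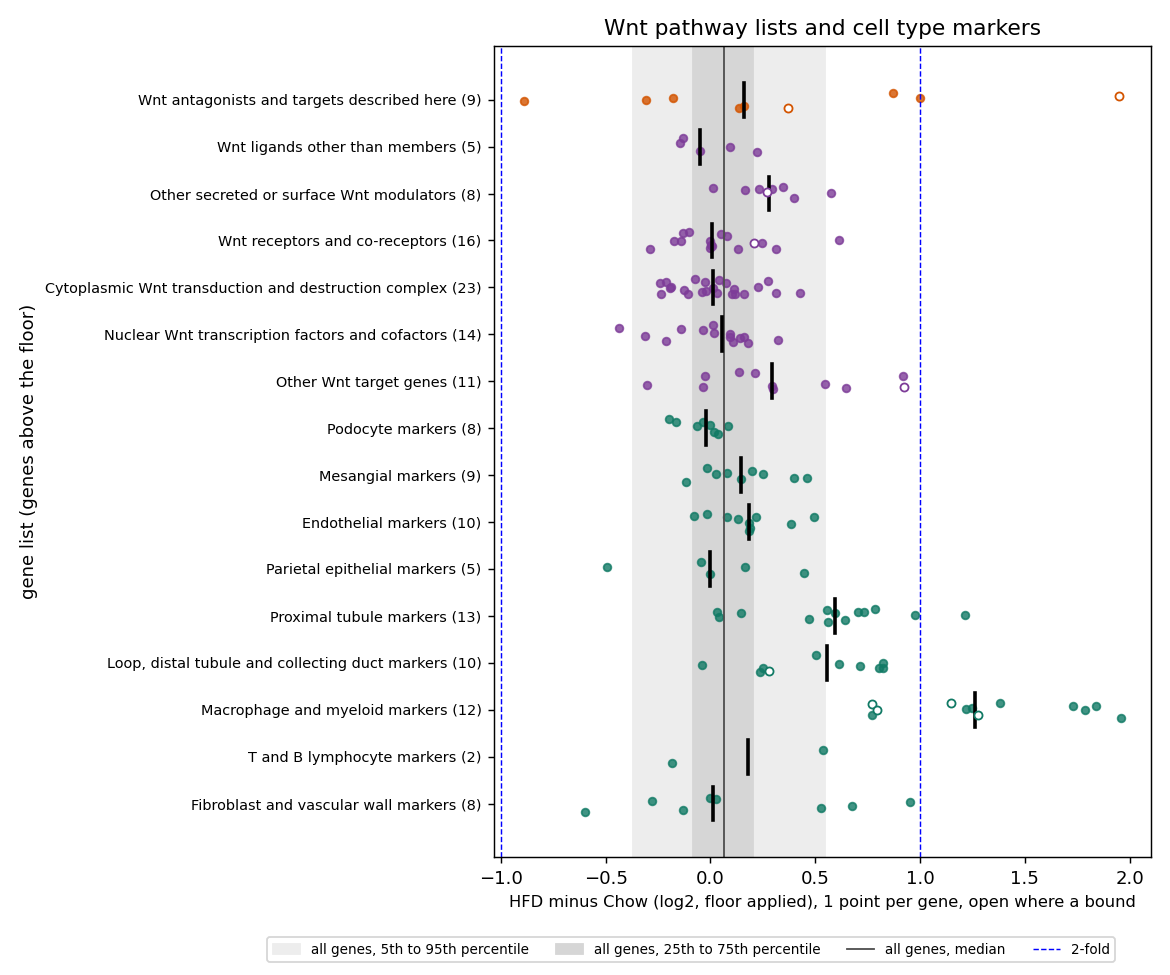
HFD minus Chow log2 difference (x axis) of each gene above the floor on at least 1 array, in the listed Wnt genes, 6 further Wnt lists and 9 cell type marker lists (y axis, with the number of genes). Open points are bounds. Black bars are list medians, and the grey bands and line are the distribution and median of all genes. The Wnt lists have medians between -0.052 and 0.29, while the macrophage and myeloid list has a median of 1.26.

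Markers of several cell types differed between the same arrays. Summed signals here are of deposited, uncentred values. They run over all genes of a list on the array, also those below the floor, whereas medians are centred unless stated. For the counts below, the share of all 11356 genes above the floor that read higher was 62.2%, or 46.1% without centring. Podocyte markers, which mark an epithelial cell of the glomerulus, the labelled tissue, were bright on both, with Nphs1 at 5421 in HFD and 5427 in Chow, and 8 of 8 above the floor (median -0.019, or -0.10 without centring, summed signal 66256 in HFD and 70566 in Chow, with Wt1 at -0.20 and Foxc2 at -0.17). Macrophage and myeloid markers were above the floor for 12 of 13 genes, all 12 higher in HFD, with a summed signal of 5647 in HFD and 2251 in Chow. Of these, 8 were above the floor on both arrays, among which the largest differences were those of H2-Eb1 (1.96) and Cd74 (1.84). The other 4, C1qa, C1qb, C1qc and Cd68, were below the floor in Chow, with bounds of 0.77, 1.15, 0.79 and 1.28, and have no place in that order. Proximal tubule markers were higher for 13 of 13 genes, or 11 of 13 without centring (summed signal 15107 in HFD and 10368 in Chow, with Slc22a6 at 1.21 and Cyp2e1 at 0.97). For the loop, the distal tubule and the collecting duct, 9 of 10 markers above the floor were higher (8643 in HFD and 6195 in Chow, with Slc12a3 at 0.83 and Calb1 at 0.82). Mesangial markers had a median of 0.15, with 7 higher and 2 lower, or 0.064, with 5 and 4, without centring, over 9 genes (31941 in HFD and 30649 in Chow, with Fhl2 at 0.46 and Mcam at 0.40), and endothelial markers 0.18, or 0.10 without centring, over 10 genes (50579 in HFD and 48594 in Chow, with Plvap at 0.50 and Cdh5 at 0.39). Parietal epithelial markers had a median of -0.0043, or -0.088 without centring, over 5 genes. Their summed signal was 2317 in HFD and 2435 in Chow, with Scin at -0.49 and Cldn1 at 0.45. Fibroblast and vascular wall markers had a median of 0.012, or -0.072 without centring, over 8 genes, 4 higher and 4 lower. Their summed signal was 9475 in HFD and 9429 in Chow. Col3a1 stood at 0.95 and Tagln at 0.68, whereas Postn stood at -0.60 (1126 in HFD and 1807 in Chow). Of 8 lymphocyte markers on the array 2 were above the floor, Ighm at 0.54 and Cd8a at -0.18, and Cd3d, Cd3e and Cd3g were below it on both arrays (summed signal of the list 162 in HFD and 150 in Chow). The part of these cell types in the Frzb, Dkk2, Sfrp1 and Wnt4 differences was not tested, and more cells of a type and more RNA per cell cannot be told apart.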

How the data were processed

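RNA was purified with a Qiagen RNeasy kit and converted to biotin-labelled cRNA by two-cycle labelling, per the labels' protocols, and hybridised to Affymetrix Mouse Genome 430 2.0 arrays, per the design text, with 1 array per diet. The file deposited by the authors holds probe set intensities on a linear scale, from 0.053 to 19489 for HFD and 0.054 to 19853 for Chow. GeneSpring 7.3.1 served their comparison, per the design text, while the summarisation of probes and the scaling of arrays are not stated. From these, 64 control probe sets were set aside and the remaining 45037 were put on a log2 scale, centred on each array's median and floored at the 50th percentile with Python 3.11.15, numpy 2.4.6 and pandas 2.3.3. Gene names came from the platform annotation (34945 probe sets with 1 symbol, 932 with several, 9160 unnamed here). Differences are HFD minus Chow. With 1 array per diet no p-value or standard error can be given, and the number of arrays limits the precision.

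The genes, lists and naming rule were chosen with earlier results of these data known. The rule named all probe sets of the 10 genes, up to 4 genes of each other Wnt list and up to 2 of each marker list with the largest difference. It also named the 3 genes with signals most like those of Frzb, not reported here because that sets the levels of different probe sets, partly below the floor, against each other. Chosen after their values were seen were Wls, Nkd1, Nkd2, Sp5, Rspo3, Dkk1, Dkk4, Notum, Lgr5, Nphs1, C1qa, C1qb, C1qc, Cd68, Cd3d, Cd3e, Cd3g and Postn. The scaling was tested on simulated arrays with known changes in probe sets above the floor on both arrays. Floors, bounds, counts and gene lists were not tested in this way. The alternatives tried were other scalings, floors and fold thresholds, and taking the middle value of each gene's probe sets. A further alternative dropped the probe sets whose names end in _x_at or _s_at.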

Additional observations from a re-analysis of the deposited data

How the results depend on the processing

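No paired analysis was possible because each diet had 1 array. The 14 differences of the listed genes kept their direction under the 7 alternatives of scaling and floor wherever the probe set stayed above the floor. Of 91 such values 89 moved by less than the scatter of like signals. The other 2 were those of Wnt4 1441687_at, which stood at -0.84 both with the floor at the 30th percentile and with no floor, since its HFD signal lies below the main floor. For the 10 probe sets above the main floor on both arrays, a lower floor or none cannot change the value. Part of the 89 was thus fixed in advance. Frzb 1416658_at ran from 1.86 to 2.09, Dkk2 from 0.79 to 0.87, Sfrp1 1428136_at from 0.90 to 0.999 and Wnt4 1450782_at from -0.97 to -0.78. The count of listed probe sets at least 2-fold higher was 2 with the floor at the 30th percentile, where the second Frzb probe set passed, and 0 with the floor at the 70th, which lies above the Frzb signals. At 1.5-fold it was 4 higher and 1 lower. The median of other Wnt target genes was 0.11 when a gene took the middle value of its probe sets. The medians of the receptor and cytoplasmic lists lay near 0 and changed sign under several settings, to -0.078 and -0.073 without centring, and the ligand median was 0.034 with the 30th percentile floor. Over all probe sets, counts of higher and lower were 106 and 96 without centring, 735 and 571 with the 30th percentile floor, 42 and 11 with the 70th, 336 and 211 with no floor, 237 and 125 after adding the 25th percentile in place of a floor, 857 and 605 at 1.5-fold, and 21 and 7 at 3-fold, against 144 and 69 as reported. Settings without a floor kept to the probe sets above the main floor. Differences below the floor have no order, and 1 array per diet leaves the variation between mice unmeasured.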
